A study of Mus musculus with 6 samples.

Results

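Genes for voltage-gated and related cation channels were examined in mouse chondrocytes lacking Uhrf1. The set holds the 132 rows of the deposited table, of 23351, whose symbol begins with Kcn followed by letters and a closing number (potassium channels, 92 genes), with Scn and a digit (sodium channels, 14 genes) or with Cacna, Cacnb or Cacng (calcium channels, 26 genes). The choice used names and no measured value. RNA was sequenced from primary chondrocytes of Uhrf1 conditional knockout (cKO, 3 libraries) and Control (3 libraries) C57BL/6 mice, which were taken from the knee cartilage at postnatal day 3. Cells of both groups had been grown to confluence and had received recombinant human BMP-2, a growth factor that drives cartilage differentiation, at 100 ng/ml for 24 hours. The sources used here name neither the Cre driver nor the floxed allele nor the genotype of the Control mice. The labels do not say whether the 3 libraries of a group come from separate mice. The Y-linked transcript Ddx3y stood at 22.2, 0 and 0 FPKM in cKO libraries, against 31.6, 0 and 24.3 FPKM in Control libraries, so within each group the libraries differed in Y-linked RNA and were not all taken from 1 and the same mouse. The p-values measure the spread among these libraries, and how much of it is technical is unknown. The names of all cKO libraries carry another prefix than those of all Control libraries, and what it marks cannot be told apart from genotype.

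Potassium channels let potassium leave the cell and set the resting membrane potential. Voltage-gated sodium channels carry the fast upstroke of the action potential, and voltage-gated calcium channels turn depolarisation into calcium entry. The pore is formed by an alpha subunit, and smaller auxiliary subunits change how it opens and how much of it reaches the membrane. Chondrocytes are not excitable cells, but they carry potassium, sodium and calcium channels that take part in volume control and in the response to load. Uhrf1 binds hemimethylated CpG sites after replication and brings in the maintenance methyltransferase Dnmt1.

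Because Uhrf1 acts on CpG methylation, the promoters of 3 channel genes whose RNA differed between the groups are shown with every CpG in capitals. They are RefSeq windows of GRCm38.p6 (mm10), from 250 bases before to 50 bases after the start nearest the 5′ end of the deposited gene interval. Methylation was not measured in these libraries. The windows lie at chr1:192190527-192190826 on the plus strand for Kcnh1, chr4:152477500-152477799 on the minus strand for Kcnab2 and chr14:20181733-20182032 on the minus strand for Kcnk5.
Kcnh1: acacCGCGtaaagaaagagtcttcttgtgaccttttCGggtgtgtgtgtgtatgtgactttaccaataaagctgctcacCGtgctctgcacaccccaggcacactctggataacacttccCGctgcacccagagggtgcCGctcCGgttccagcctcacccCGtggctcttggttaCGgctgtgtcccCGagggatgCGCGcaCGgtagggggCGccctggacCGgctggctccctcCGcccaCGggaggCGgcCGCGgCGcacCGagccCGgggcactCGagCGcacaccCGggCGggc
Kcnab2: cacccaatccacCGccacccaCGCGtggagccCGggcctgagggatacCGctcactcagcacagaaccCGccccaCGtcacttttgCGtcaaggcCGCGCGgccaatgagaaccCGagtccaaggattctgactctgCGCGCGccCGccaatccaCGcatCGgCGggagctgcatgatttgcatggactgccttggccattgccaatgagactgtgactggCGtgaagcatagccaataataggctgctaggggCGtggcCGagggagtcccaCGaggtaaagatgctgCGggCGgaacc
Kcnk5: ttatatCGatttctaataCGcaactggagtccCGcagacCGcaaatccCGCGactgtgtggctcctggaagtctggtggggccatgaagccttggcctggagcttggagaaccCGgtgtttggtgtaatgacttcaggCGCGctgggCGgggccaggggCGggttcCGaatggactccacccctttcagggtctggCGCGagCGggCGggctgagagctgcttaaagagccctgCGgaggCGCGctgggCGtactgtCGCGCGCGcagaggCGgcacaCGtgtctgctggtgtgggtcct
The motif searched was CG, which reads the same on both strands. The Kcnh1 window held 27 CpG, the Kcnab2 window 25 and the Kcnk5 window 26, and 15.5%, 18.4% and 16.9% of all 32851 windows in the table held as many or more. Kcnh1 and Kcnab2 were higher and Kcnk5 lower in cKO cells, as given below. Whether CpG number bears on the direction of a difference was not tested. Windows were found for 96 of the 132 genes. Their median, taken over the window nearest the deposited 5′ end of each gene, was 10 CpG. The median over all windows was 7, but these include alternative starts of the same gene, so the sets are not alike. Kcnk2 was also higher in cKO cells and has 4 annotated windows. They held 3 CpG at the start that matches the deposited interval and 6, 33 and 33 CpG at the others. Kcnab2 has 3 windows, with 25 CpG in the window printed here and 5 and 3 CpG in the others. No window was found for Cacna1a and Scn3a, which were also higher in cKO cells.

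Channel genes were mostly silent or low. Of the 132, 41 were listed at 0 in all 6 libraries (31.1%, against 30.7% of all genes), and 91 were above 0 in at least 1. FPKM gives sequenced fragments scaled to the length of the transcript and to the size of the library. In 2 or more libraries, 28 channel genes (21.2%) reached 1 FPKM, against 51.0% of all genes. The libraries held an estimated 2770000 to 3240000 fragments each, and these depths set the precision of the low values given here: 0.705 FPKM of the short Cacng1 transcript corresponds to about 2 fragments. The number of channel genes at 1 FPKM or more was 26, 26 and 25 in the cKO libraries, against 22, 22 and 22 in the Control libraries. Over all genes the number was also higher in every cKO library, at 11551 to 11635, against 11233 to 11268 in Control libraries. The summed level of the channel genes was 118, 117 and 121 FPKM in cKO, against 101, 109 and 102 FPKM in Control, and the groups did not overlap. No test was made of these sums. In bulk RNA, a change in the number of expressing cells and a change in RNA per cell cannot be told apart.

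**Figure D1:**
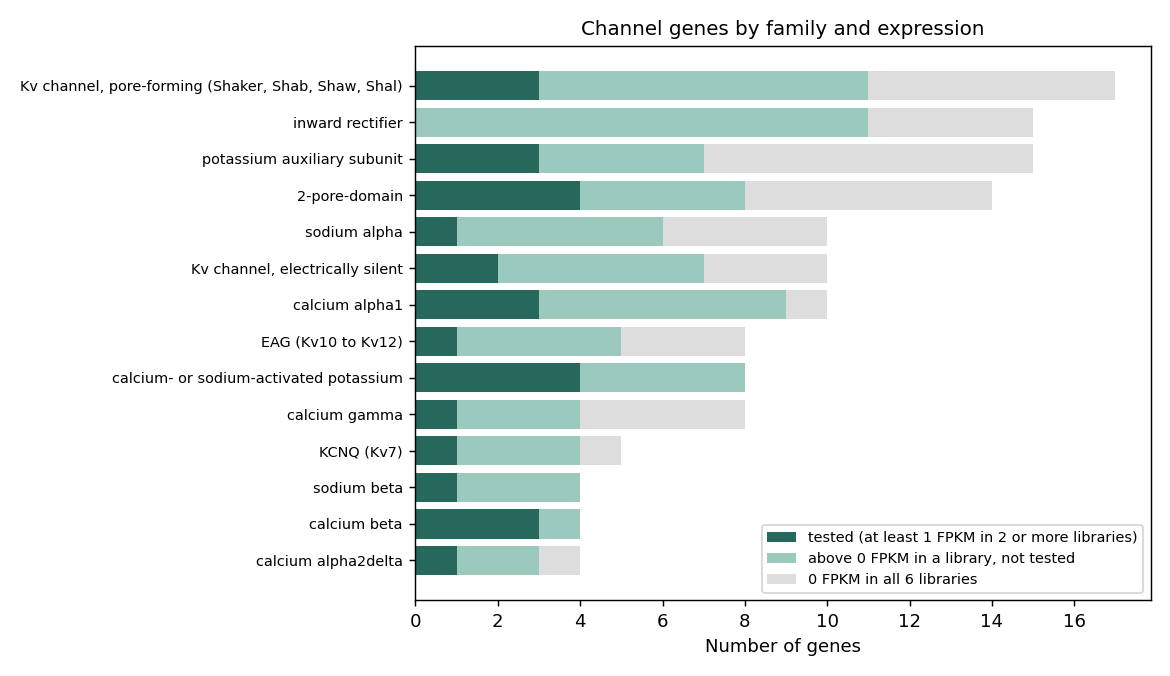
Number of channel genes in each family (horizontal axis), split into those tested, those above 0 FPKM in some library but not tested, and those at 0 FPKM in all 6 libraries. All 15 inward rectifier genes fell short of the filter, whereas 4 of 8 calcium- or sodium-activated potassium channel genes passed it.

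Families differed in how many members passed the filter of 1 FPKM in 2 or more libraries. Among potassium channels, 4 of 14 genes for channels with paired pore domains, 4 of 8 for calcium- or sodium-activated channels, 3 of 17 for the Shaker, Shab, Shaw and Shal pores and 3 of 15 for auxiliary subunits passed. None of the 15 inward rectifier genes did, and the highest value of any of them in any library was 0.399 FPKM. Among calcium channels 3 of 10 alpha1 pores and 3 of 4 beta subunits passed, and among sodium channels 1 of 10 alpha pores (Scn3a).

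The test was limma on log2(FPKM + 1) over all 11911 genes that passed the filter, two-sided, and a gene was called at a Benjamini-Hochberg adjusted p under 0.05. Over all genes tested, 17.8% were called in either direction. Of the 28 channel genes tested, 5 rose in cKO cells (17.9%, against 9.81% of all genes tested), 1 fell (3.57%, against 7.96%) and 22 were not called. The median difference, cKO minus Control, was 0.14 for the 28 genes and 0.00039 for all genes tested. Of the 28, 6 passed the filter through the cKO libraries alone, 2 through the Control libraries alone and 20 in either group, so these figures describe the genes that passed and not all channel genes. With the filter lowered to any value above 0, 6 of 91 channel genes rose (6.59%, against 7.12% of 16187 genes) and 1 fell (1.10%, against 4.87%), shares near or under those of all genes. The authors' deposited table tested 12 channel genes and called 3 higher and 1 lower at a q under 0.05. Of all 9701 genes it tested, it called 11.7% higher and 11.2% lower. Uhrf1 itself stood at 3.22, 3.17 and 2.73 FPKM in cKO cells, against 28.2, 22.9 and 30.6 FPKM in Control cells (limma adjusted p = 1.7e-06).

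**Figure D2:**
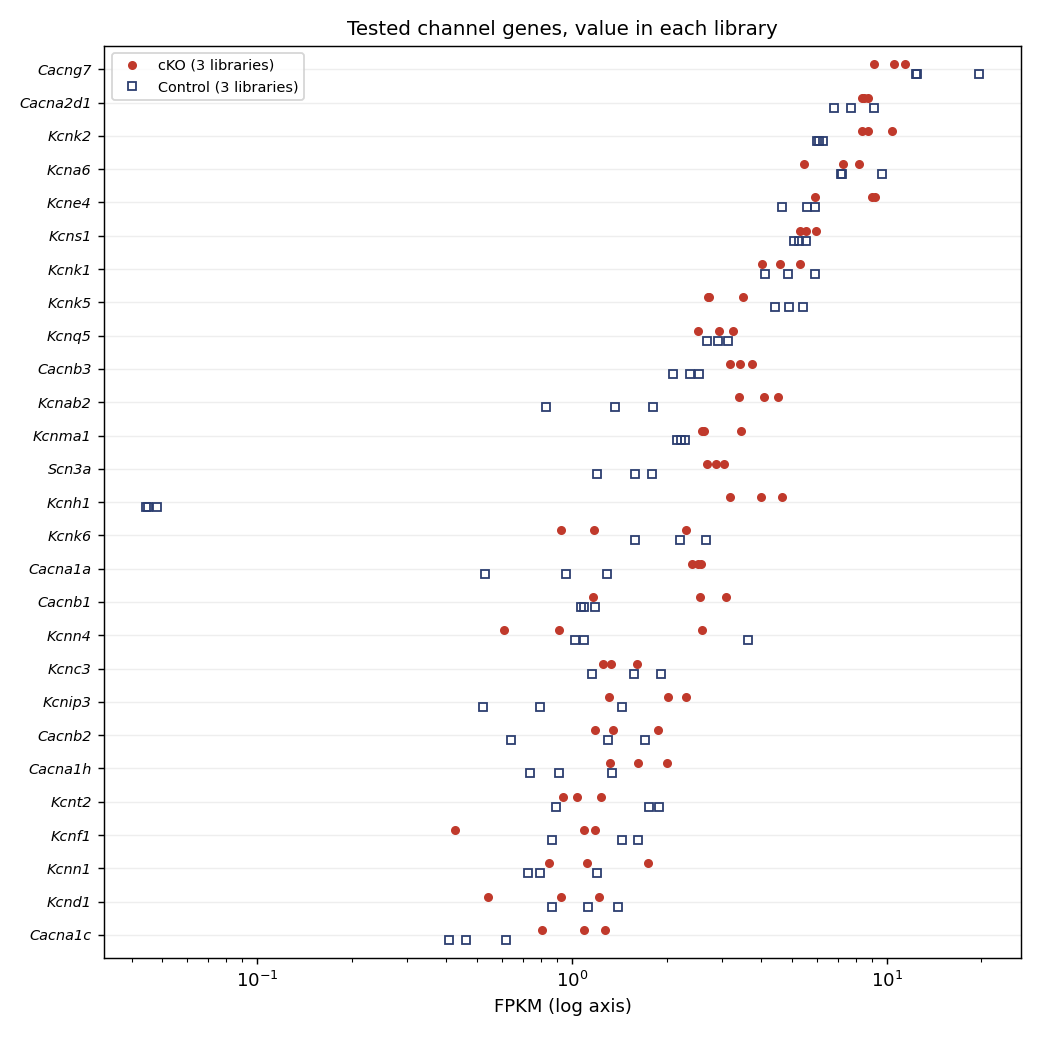
FPKM in each of 3 cKO (filled circles) and 3 Control (open squares) libraries for 27 tested channel genes, on a log axis, ordered by mean level. Kcnh1 stands apart, at 3.18 to 4.66 FPKM in cKO and 0.0445 to 0.0482 FPKM in Control libraries.

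Among pore-forming potassium channels, Kcnh1 differed most. Kcnh1 (chromosome 1, 192190871 to 192510158, mm10, plus strand, protein-coding) encodes Kv10.1, a slowly activating voltage-gated channel that in mammals is found mainly in brain and is expressed in many tumours. It stood at 4.66, 3.18 and 3.998 FPKM in cKO cells, against 0.0452, 0.0482 and 0.0445 FPKM in Control cells. Every cKO library was far above every Control library. From the transcript length and the depth, these values correspond to about 91, 69 and 86 fragments in the cKO libraries and to 1 fragment in each Control library. Per fragment sequenced the ratio was 86.9, with an exact 95% binomial interval of 29.4 to 424 that covers counting error only. limma fitted a difference of 2.23 ± 0.18 (standard error) in log2(FPKM + 1), at an adjusted p of 4.65e-05. Kcnh1 was among the 6 tested channel genes that passed the filter of 1 FPKM through the cKO libraries alone. The authors' deposited table gave a log2 fold change of 6.42 and did not call it (q = 0.370). Hhat, on the opposite strand, overlaps the Kcnh1 interval. Hhat stood at 2.58, 2.91 and 3.70 FPKM in cKO and 2.93, 2.01 and 2.66 FPKM in Control cells (limma adjusted p = 0.479).

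The channels with paired pore domains, which carry background potassium current, went in both directions. Kcnk2 (chromosome 1, 189207929 to 189344192, minus strand), which encodes the mechanically gated TREK-1, had 10.4, 8.35 and 8.72 FPKM in cKO cells, against 6.28, 6.08 and 6.0 FPKM in Control cells. The groups did not overlap. It rose 1.496-fold in group means, a fitted difference of 0.51 (standard error 0.12, limma adjusted p = 0.0189). The call was lost without cKO 1, cKO 3 or Control 2 (limma adjusted p = 0.0527 to 0.0778). Kcnk5 (chromosome 14, 20140057 to 20181782, minus strand), which encodes the alkaline-activated TASK-2, had 2.71, 2.73 and 3.50 FPKM in cKO cells, against 4.89, 5.43 and 4.43 FPKM in Control cells. Here every cKO library lay below every Control library. Kcnk5 was 1.65-fold lower in cKO, a fitted difference of -0.57 (standard error 0.15, limma adjusted p = 0.0266), and its call was lost without cKO 1, cKO 2, Control 1 or Control 2 (limma adjusted p = 0.0532 to 0.0950). The authors' deposited table called both, Kcnk2 higher (q = 0.00292) and Kcnk5 lower (q = 0.00462). Kcnk1, which encodes the weakly conducting TWIK-1, overlapped between the groups at 4.01 to 5.30 FPKM in cKO and 4.10 to 5.92 FPKM in Control cells.

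Of the auxiliary potassium channel subunits, Kcnab2 rose. Kcnab2 (chromosome 4, 152390739 to 152477549, minus strand) encodes Kv-beta2, a cytoplasmic subunit with an aldo-keto reductase fold that binds Shaker-type channels. It had 3.39, 4.09 and 4.51 FPKM in cKO cells, against 0.828, 1.38 and 1.81 FPKM in Control cells. The groups were well separated, and the mean was 2.99-fold higher (difference 1.11, standard error 0.20, limma adjusted p = 0.00439). The authors' deposited table also called it (q = 0.000520). Nphp4, which overlaps it on the opposite strand, was under 1.07 FPKM in every library. Kcna6, the Shaker-type pore with the highest level, stood at 7.25, 5.45 and 8.16 FPKM in cKO and 7.15, 9.69 and 7.20 FPKM in Control cells and was not called (limma adjusted p = 0.503).

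Kcne4 encodes a subunit with a single membrane span that inhibits several voltage-gated potassium channels. It stood at 8.99, 5.92 and 9.19 FPKM in cKO cells, against 5.59, 4.66 and 5.91 FPKM in Control cells. The lowest cKO value lay just above the highest Control value, and the difference of 0.48 (standard error 0.17) did not pass the test (limma adjusted p = 0.0855). The authors' deposited table did call it higher (q = 0.0181), and without cKO 2 limma did too (adjusted p = 0.0239).

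No other potassium channel gene named by the rule was called. Kcns1, an electrically silent subunit that joins other voltage-gated pores, averaged 5.61 ± 0.336 FPKM in cKO and 5.29 ± 0.224 FPKM in Control cells (SD, n = 3 each). Kcnq5, a pore of the slow M-type current, averaged 2.91 ± 0.365 FPKM in cKO and 2.91 ± 0.228 FPKM in Control cells (SD, n = 3 each). Kcnma1, the large-conductance calcium-activated channel, stood at 2.59, 3.44 and 2.63 FPKM in cKO cells, against 2.29, 2.22 and 2.15 FPKM in Control cells, groups that did not overlap, but the difference of 0.26 (standard error 0.15) was not called (limma adjusted p = 0.286). Kcnq1, an imprinted gene that encodes a slow cardiac and epithelial channel, was listed at 0 in all cKO libraries and at 0.109, 0.117 and 0 FPKM in the Control libraries, where each value above 0 corresponds to about 1 fragment.

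**Figure D3:**
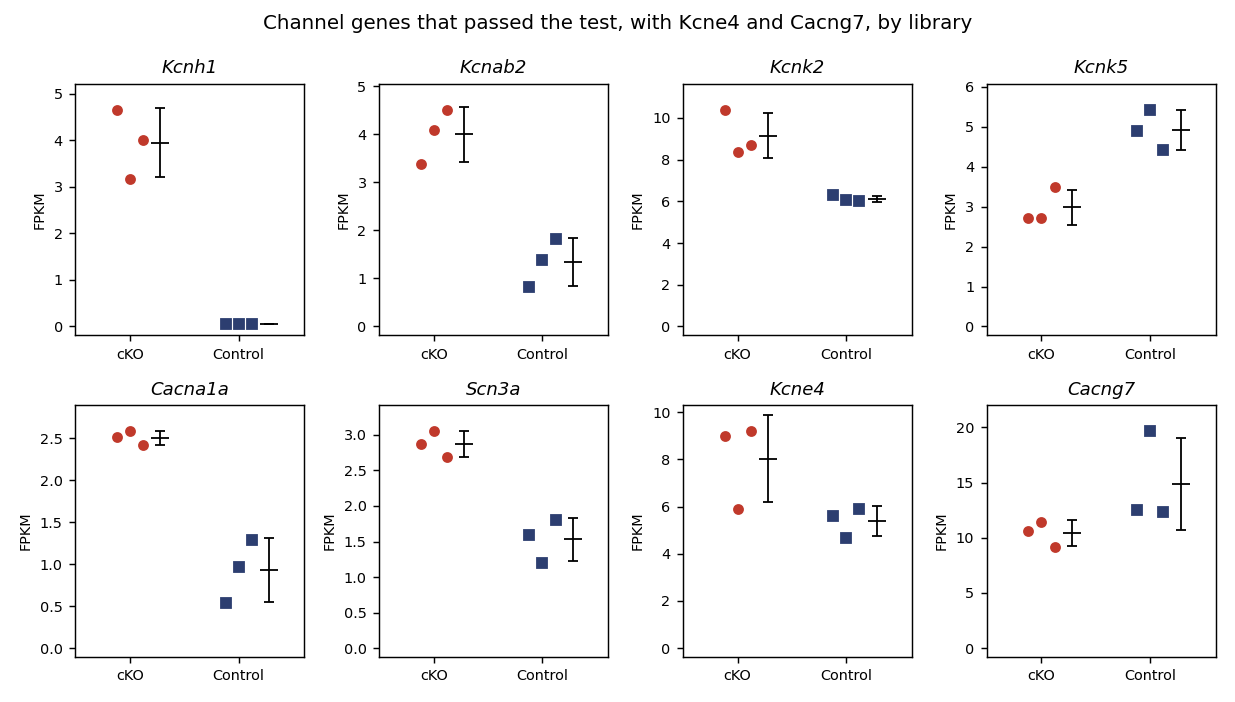
FPKM per library for the 6 channel genes that passed the test and for Kcne4 and Cacng7, which did not, with cKO on the left and Control on the right of each panel. Points are libraries, and bars give mean ± SD (n = 3).

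Among sodium channels, Scn3a (chromosome 2, 65457117 to 65567492, minus strand) encodes Nav1.3, a pore of embryonic neurons. It had 2.88, 3.05 and 2.69 FPKM in cKO cells, against 1.59, 1.20 and 1.80 FPKM in Control cells. The groups did not overlap and the mean was 1.88-fold higher (difference 0.62, standard error 0.16, limma adjusted p = 0.0283). The call was lost without cKO 1, cKO 2, cKO 3 or Control 2 (limma adjusted p = 0.0691 to 0.0924). Its neighbour Scn2a1, 103 kb away, stood at 0.761, 0.869 and 0.577 FPKM in cKO and at 1.02, 0.664 and 0.756 FPKM in Control cells, below the filter. The skeletal muscle pore Scn4a was at or under 0.0561 FPKM everywhere, about 1 fragment in cKO 1 and in Control 1 and none elsewhere.

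Among calcium channel pores, Cacna1a (chromosome 8, 84415363 to 84640249, plus strand) encodes Cav2.1, the P/Q-type channel of nerve terminals. It had 2.51, 2.58 and 2.41 FPKM in cKO cells, against 0.532, 0.962 and 1.29 FPKM in Control cells. All cKO libraries lay close together and above all Control libraries, with a 2.695-fold higher mean (difference 0.88, standard error 0.19, limma adjusted p = 0.0124). It was among the 6 genes that passed the filter through cKO alone. Cacna1c, the L-type Cav1.2, stood at 0.805, 1.27 and 1.09 FPKM in cKO cells, against 0.461, 0.619 and 0.406 FPKM in Control cells. The groups did not overlap, but the difference of 0.46 (standard error 0.19) was not called (limma adjusted p = 0.141), and the gene shares its interval with Dcp1b. Cacna1h, the T-type Cav3.2, averaged 1.66 ± 0.344 FPKM in cKO and 0.998 ± 0.310 FPKM in Control cells (SD, n = 3 each) and was not called (limma adjusted p = 0.183).

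Among the auxiliary calcium channel subunits was Cacng7, the channel gene of highest mean level. Cacng7, a gamma subunit known mainly as a regulator of AMPA-type glutamate receptors, had 10.6, 11.5 and 9.12 FPKM in cKO cells, against 12.5, 19.6 and 12.4 FPKM in Control cells. The groups did not overlap, with Control 2 well above the rest, and the difference of -0.45 (standard error 0.17) was not called (limma adjusted p = 0.110). Without Control 2 the difference was -0.24 (limma adjusted p = 0.286). Cacna2d1, the alpha2delta subunit bound by gabapentin, averaged 8.50 ± 0.193 FPKM in cKO and 7.87 ± 1.15 FPKM in Control cells (SD, n = 3 each) and overlapped between the groups.

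Over the 28 tested genes, groups did not overlap in 9 genes with higher cKO values (32.1%, against 18.4% of all genes tested) and in 2 with lower ones (7.14%, against 17.5%). Of the 9, Kcnh1, Cacna1a and Cacna1c passed the filter through the cKO libraries alone. The 2 lower ones, Cacng7 and Kcnk5, passed it in either group. The 22 genes not called had differences between -0.45 for Cacng7 and 0.60 for Kcnip3, a calcium-binding partner of Shal-type channels. The median coefficient of variation of the 28 genes was 15.8% in cKO and 21.0% in Control, against 18.8% and 21.4% for all tested genes of 1 to 5 FPKM and 7.92% and 10.4% for those over 5 FPKM, where 7 of the 28 lie.

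**Figure D4:**
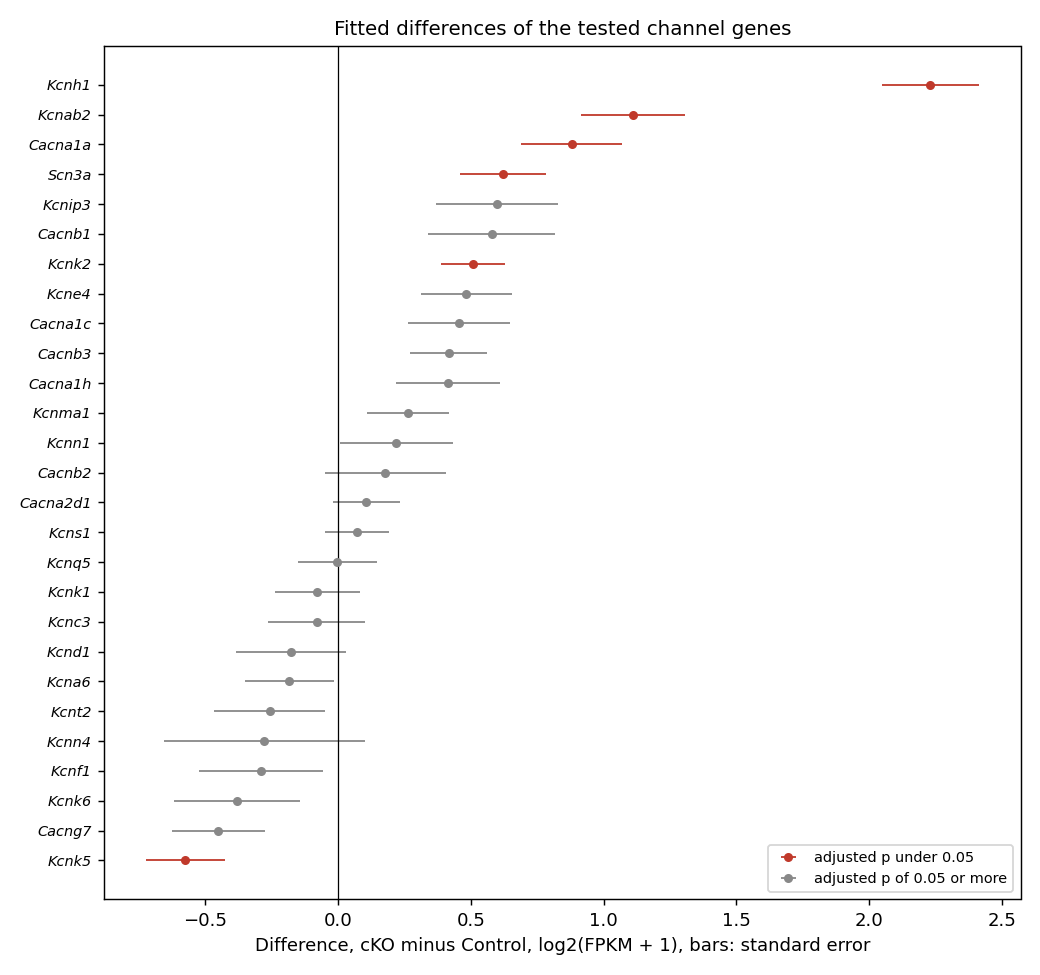
Fitted difference, cKO minus Control, on the log2(FPKM + 1) scale (horizontal axis) with its standard error for 27 tested channel genes. Kcnh1 has the highest difference at 2.23 and Kcnk5 the lowest at -0.57.

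Below the filter, 3 of the 132 genes were above 0 in all 3 cKO libraries and at 0 in all 3 Control libraries (0.964% of all genes in the table showed that pattern), and 1 showed the opposite pattern (0.180% of all genes). The 3 were Cacng1, Cacna1s and Kcnv2, and the 1 was Kcnd3. Cacng1 and Cacna1s encode the gamma1 and pore subunits of Cav1.1, the calcium channel that couples excitation to contraction in skeletal muscle. Cacng1 had 0.705, 1.58 and 0.962 FPKM in cKO libraries, about 2, 5 and 3 fragments, and was listed at 0 in every Control library. It was called higher when every gene above 0 was tested (limma adjusted p = 0.00483). Cacng1 entered that test through the cKO libraries alone, so its direction was set by the filter. Cacna1s had 0.180, 0.318 and 0.654 FPKM in cKO libraries and was listed at 0 in every Control library. For the longest transcript these values correspond to about 3, 6 and 12 fragments. Scaled for depth they stand at 1, 2 and 4 times a common value, so fewer fragments are possible. Cacnb1, the beta subunit of the same channel, had 3.09, 2.56 and 1.16 FPKM in cKO cells, against 1.10, 1.07 and 1.18 FPKM in Control cells. Only cKO 1 and cKO 2 lay above the Control range, and the difference was not called (limma adjusted p = 0.134). Of the fits without 1 library, only that without cKO 3 called it (limma adjusted p = 0.0246). The others gave a limma adjusted p of 0.192 to 0.361.

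Skeletal muscle markers had a higher sum in every cKO library, and the highest in cKO 3, where Cacnb1 was lowest among cKO libraries. Of 17 listed markers 13 passed the filter and all 13 rose, but 11 of them passed it through the cKO libraries alone, so that their direction was largely set by the filter. The summed level of the 17 was 133, 161 and 225 FPKM in cKO libraries, against 4.93, 7.03 and 5.92 FPKM in Control libraries. Of 24 listed genes of calcium stores and excitation-contraction coupling, 15 were tested, 4 rose and none fell (against 9.81% and 7.96% of all genes tested), with a median difference of 0.36. All 4, named here, passed the filter through the cKO libraries alone, as did 2 of the 11 not called. The calsequestrin gene Casq2 had 2.16, 2.89 and 2.81 FPKM in cKO, against 0.267, 0.143 and 0.131 FPKM in Control cells (limma adjusted p = 0.000372). Its skeletal form Casq1 had 1.91, 3.42 and 0.968 FPKM in cKO, against 0.184, 0.393 and 0.181 FPKM in Control cells (limma adjusted p = 0.0162). Jsrp1, a junctional membrane protein that binds the skeletal calcium channel, had 0.771, 1.03 and 1.05 FPKM in cKO cells and was listed at 0 in Control cells. The calcium pump Atp2a3 rose 5.35-fold, to 3.55 ± 0.674 FPKM in cKO, against 0.664 ± 0.416 FPKM in Control cells (SD, n = 3 each). The part of muscle cells in these results was not tested.

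**Figure D5:**
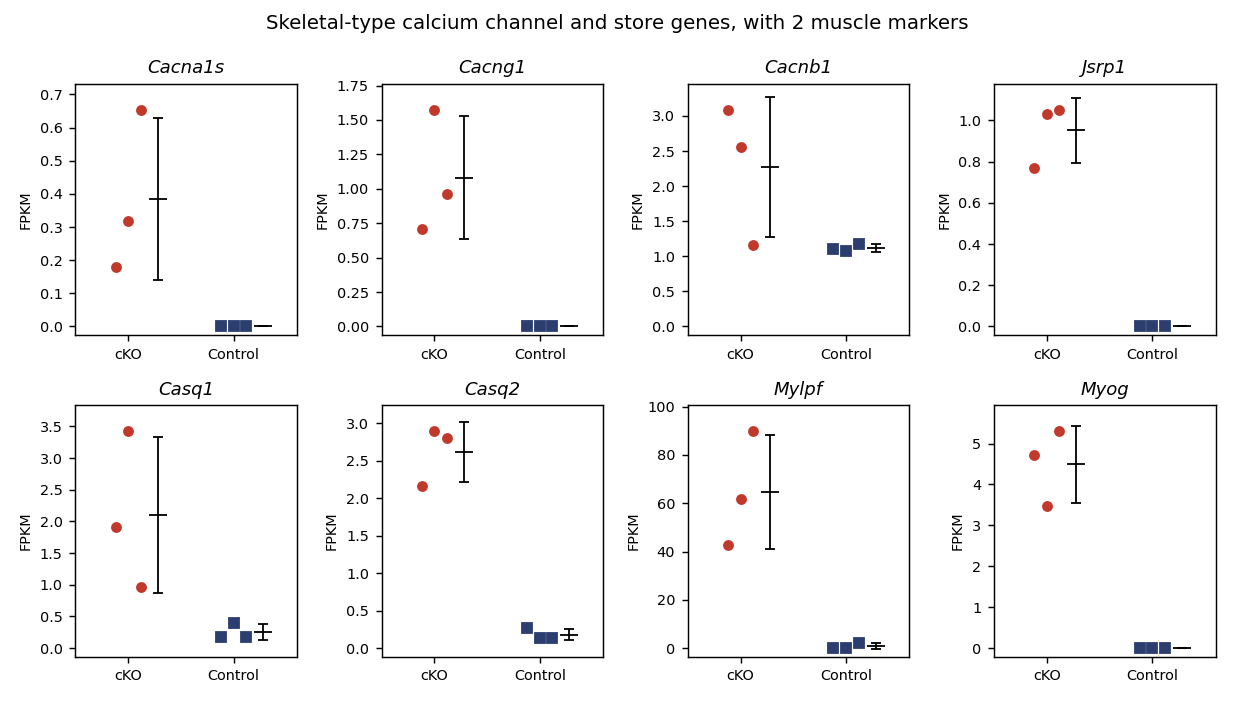
FPKM per library for the Cav1.1 subunit genes Cacna1s, Cacng1 and Cacnb1, the store genes Jsrp1, Casq1 and Casq2, and the muscle markers Mylpf and Myog, with cKO on the left and Control on the right of each panel and bars for mean ± SD (n = 3). Control libraries stand at 0 for Cacna1s, Cacng1, Jsrp1 and Myog.

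Markers of other cell types were compared with the channel genes known from neurons. Of 11 neuronal markers 3 passed the filter. Map2 rose, and Syt1, which passed the filter through Control alone, fell, and the summed level of the 11 was 10.96 to 12.05 FPKM in cKO and 9.79 to 12.8 FPKM in Control libraries. Rbfox3, Snap25 and Elavl3 were listed at 0 in all 6 libraries. The glial regulator Sox10 was also at 0 throughout, while of 3 tested Schwann and glial markers Cdh19 rose and S100b fell (summed level 88.7 to 107 FPKM in cKO, 102 to 132 FPKM in Control libraries). Of 9 chondrocyte markers 8 fell, among them Col2a1 and Acan, and none rose. Sox9 was not called (limma adjusted p = 0.268). The 9 markers summed to 6932 to 7493 FPKM in cKO, against 10390 to 13740 FPKM in Control libraries. Of 6 tested smooth muscle markers 4 rose, and the list summed to 455 to 605 FPKM in cKO and 261 to 423 FPKM in Control libraries. Both tested cardiac markers, Nppb and Tnnt2, rose after passing the filter through the cKO libraries alone, at a list sum of 2.78 to 6.03 FPKM in cKO and 0 to 0.662 FPKM in Control libraries, with Myh6, Myh7 and Mybpc3 at 0 throughout. Of 5 tested macrophage and leukocyte markers Fcer1g, which passed through cKO alone, rose (list sum 27.3 to 37.1 FPKM in cKO, 9.85 to 49.7 FPKM in Control libraries). The only endocrine marker tested, Scg2, passed through cKO alone and rose, with a list sum of at most 1.43 FPKM in any library, and no endothelial marker passed the filter (list sum at most 0.943 FPKM). What part these cell types have in the channel results was not tested.

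Neighbouring channel genes were expressed unequally. On chromosome 6, Kcna6 stood at 5.45 FPKM or more in every library, whereas Kcna1, 62.5 kb away, was above 0 only in Control 3, at 0.0349 FPKM, and Kcna5, a further 100.9 kb away, was at 0 throughout. On chromosome 7, Cacng8, 27.2 kb from Cacng7, was above 0 only in cKO 3, at 0.547 FPKM, and Cacng6 was at 0 in all libraries. On chromosome 11, Cacng4 lies 18.3 kb from Cacng1 and was listed at 0 in all cKO libraries and at 0, 0.831 and 0.383 FPKM in the Control libraries.

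Other genes of ion and calcium handling were counted in 4 further lists. Over all genes tested, 9.81% rose and 7.96% fell, and no test was made over a list. Of 16 tested TRP, Piezo and store-operated entry genes 2 rose and none fell. Trpv2, which passed the filter through cKO alone, had 1.40, 2.75 and 1.27 FPKM in cKO cells, against 0.121, 0.388 and 0.119 FPKM in Control cells (limma adjusted p = 0.00886). Stim1, the calcium sensor of the endoplasmic reticulum, rose 1.44-fold, a call lost without cKO 2, cKO 3, Control 1 or Control 2 (limma adjusted p = 0.0551 to 0.127), with every gene above 0 tested (0.0520) and with Ddx3y as covariate (0.0795).

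Of 13 tested pumps and exchangers 2 rose and 1 fell. Atp2b4, a plasma membrane calcium pump, rose 2.40-fold and Atp1b1, a sodium pump subunit, 1.52-fold. Fxyd6, a sodium pump regulator, was 1.41-fold lower in cKO, a call lost without any 1 library other than cKO 1 (limma adjusted p = 0.0613 to 0.0992), with every gene above 0 tested (0.0532) and with Ddx3y as covariate (0.0714).

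Of 20 tested genes for other cation and chloride channels 3 rose and 2 fell. Asic3 and P2rx3 passed the filter through cKO alone. The acid-sensing channel Asic3 rose 6.06-fold, to 1.78 ± 0.266 FPKM in cKO, against 0.294 ± 0.368 FPKM in Control cells (SD, n = 3 each). The ATP-gated channels P2rx3 and P2rx4 rose 3.88- and 1.33-fold, and the chloride transporter Clcn3 was 1.40-fold lower. The P2rx3 call was lost without cKO 3, Control 2 or Control 3 (limma adjusted p up to 0.137), that of P2rx4 without cKO 1, cKO 2 or Control 3 (up to 0.110) and that of Clcn3 without cKO 2, cKO 3 or Control 2 (up to 0.0787). With Ddx3y as covariate all 3 calls were lost (limma adjusted p = 0.0532, 0.0535 and 0.0554), and that of P2rx3 also with a pseudocount of 0.1 (0.0578) and with a replicate block (0.0620).

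Of 22 tested genes for calmodulin, calcineurin and channel partners 3 rose and 1 fell. Gem encodes a small GTPase that binds calcium channel beta subunits and inhibits the channel. It had 5.72, 3.41 and 7.10 FPKM in cKO, against 1.05, 1.76 and 1.77 FPKM in Control cells (limma adjusted p = 0.00511). The calcineurin regulator Rcan2 rose 1.49-fold and the kinase gene Camk2g 1.34-fold, while the calmodulin gene Calm2 was 1.31-fold lower in cKO. The Camk2g call was lost without cKO 1, cKO 3 or Control 2 (limma adjusted p up to 0.0857) and that of Calm2 without cKO 3 (0.0529).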

How the data were processed

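RNA was measured in 3 cKO and 3 Control libraries. Per the series' design text and the submitters' processing notes, TopHat placed the reads on mm10 and Cufflinks analysed them, and the kit was stranded, per the labels' protocols. The sources used here give no version, annotation, strand setting or scaling. Per the file headers, the table deposited by the authors holds FPKM for each library and each group mean. It also holds the authors' log2 fold change, their test statistic, treated as a score, and their p-value and q-value. Its status column reads OK for 12 of the 132 channel genes and NOTEST for 120.

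FPKM are not counts, so limma 3.58.1 in R 4.3.3 was used (lmFit, eBayes with trend and robust options), two-sided, on log2(FPKM + 1), over the 11911 genes that 2 or more libraries showed at 1 FPKM or above. The added 1 shrinks differences of weakly expressed genes. Each fold is a ratio of group means in FPKM. Values of genes with 1 annotated transcript fall on steps, which gave a depth of 2770000 to 3240000 fragments per library. Of such values under 4.5 steps, 65.8% to 72.8% lay within 0.05 of a whole step. Fragment numbers assume the longest GENCODE M21 transcript and a fragment length of 170 bases, and are estimates. The fit was tested on simulated data, with shifts placed only in genes of mean log2(FPKM + 1) above 2. Kcnh1, Kcnab2, Scn3a and Cacna1a lie below that level, so the simulation does not show how often such genes are called.

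Named channel genes are those called, the 10 of highest mean, those at 0 in 1 group with at least 1 FPKM on average in the other, and Kcnq1, Kcnma1, Cacna1c, Cacna1h and Scn4a. Up to 4 called genes of each partner list were named. Other names were chosen after their values were seen. Members and lists were chosen with earlier results of these data known. Among tested channel genes, any that overlap another gene are uncertain, since the strand setting is unknown. A line without values was left out. The counts include 1 tested channel gene that is not reported here. Alternatives were other filters, pseudocounts, scalings and thresholds, a replicate block, a Ddx3y covariate, the authors' q-value and leaving out each library.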

Additional observations from a re-analysis of the deposited data

How the results depend on the processing

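The number of channel genes called higher in cKO, 5, and lower, 1, was the same with pseudocounts of 0.1 or 0.5, under both other scalings, with a mean of at least 1 FPKM as the filter and with Ddx3y, a Y-linked transcript, as covariate. With every gene above 0 FPKM tested they were 6 and 1. With a mean of at least 5 FPKM, which left 7 channel genes, they were 1 and 0. At an adjusted p threshold of 0.01 they were 2 and 0, and with a log2 difference of at least 1 they were also 2 and 0. The authors' deposited q-value gave 3 and 1. Leaving out 1 library gave 3 to 5 higher and 0 to 1 lower genes, and Kcnh1, Kcnab2 and Cacna1a were called in each of these fits. The number called higher was 3 without cKO 1 or Control 2 and 4 without cKO 3, and the number called lower was 0 without cKO 1, cKO 2, Control 1 or Control 2 (12 channel genes had an unadjusted limma p under 0.05 with all libraries and 8 to 10 in those fits). A replicate block gave 6 higher and 2 lower, adding Kcne4 and Cacng7. Libraries with the same number showed no common tendency to deviate together (r = 0.169, 0.0258 and -0.0443 over 11911 genes). Only replicates 1 correlated best with their own number. With so few libraries, these values cannot decide whether the numbers pair them. Of 206 alternative values for 16 named channel genes, 187 kept direction and call, 11 lost and 3 gained a call, and 5 reversed, all in genes not called: Kcnk1 (-0.184 to 0.0360 over the fits without 1 library, positive without cKO 3 or Control 3) and Kcnq5 (-0.0676 to 0.0679, positive without cKO 2 or Control 1, and 0.00183 with the Ddx3y covariate). Of 215 values for 17 partner genes, 184 kept direction and call and 31 lost the call. The causes were not tested beyond the smaller number of libraries or genes. At the depth of these libraries, genes under 1 FPKM rest on few fragments.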
